A study of Bos taurus with 10 samples.

Results

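FHL1, FHL2, ANKRD1 and RCAN1 are genes that respond to mechanical load or to calcium signalling, and their levels were followed in the right ventricle of newborn calves after hypobaric hypoxia. They were chosen by gene symbol: every probe set whose single platform symbol is 1 of these 4 was taken, which gave 5 of the 24016 probe sets tested, 2 for ANKRD1 and 1 for each other gene. A probe set is a group of short probes on the Affymetrix Bovine GeneChip that gives 1 value, and it can read several transcripts of a gene. The 5 hypoxia calves, titled PH in the labels, were housed for 14 days under reduced pressure, as found at 4570 m, and the 5 control calves spent the same time in ambient air at 1525 m. All 10 animals were male Holstein dairy calves of matched age, in their first days of life at the start, no genetic change is given for them, and each gave 1 array. Levels are log2 expression values, on which a difference of 1 is a 2-fold difference, and differences are hypoxia minus control.

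A heart muscle cell reads its own stretch partly through the sarcomere, where the giant spring protein titin runs from the Z-disc towards the middle. FHL1 and FHL2 are adaptor proteins built almost entirely of LIM domains. Both bind a springy stretch of titin, and FHL1 brings signalling kinases of the MEK and ERK pathway there. ANKRD1, the cardiac ankyrin repeat protein, binds another springy stretch of titin together with myopalladin and also acts in the nucleus. RCAN1 binds and restrains calcineurin, the calcium-activated phosphatase that switches on NFAT transcription factors, and one of its transcripts is itself a target of NFAT. In mouse hearts, loss of FHL1 blunts the growth response to pressure, while FHL2 restrains growth driven by beta-adrenergic signals.

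FHL1 and ANKRD1 rose in hypoxia, while FHL2 and RCAN1 did not pass the test. FHL1 was 1.91-fold higher. ANKRD1 was 2.08-fold higher on its dimmer probe set and 1.40-fold higher on its brighter one. FHL2 had 0.88 times the control level, and RCAN1 had 1.35 times the control level with a wide spread among controls. Of the 5 probe sets, 3 had an adjusted p under 0.05 (limma, with Benjamini-Hochberg adjustment over all probe sets), all higher in hypoxia, where 2.71% of all probe sets passed, 1.65% in the direction of higher. The same 3 had every hypoxia calf above every control calf, as did 2.71% of all probe sets. All 5 probe sets were bright, with group means above those of at least 95.7% of probe sets, and 4.58% of the brightest 5% of probe sets passed.

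**Figure D1:**
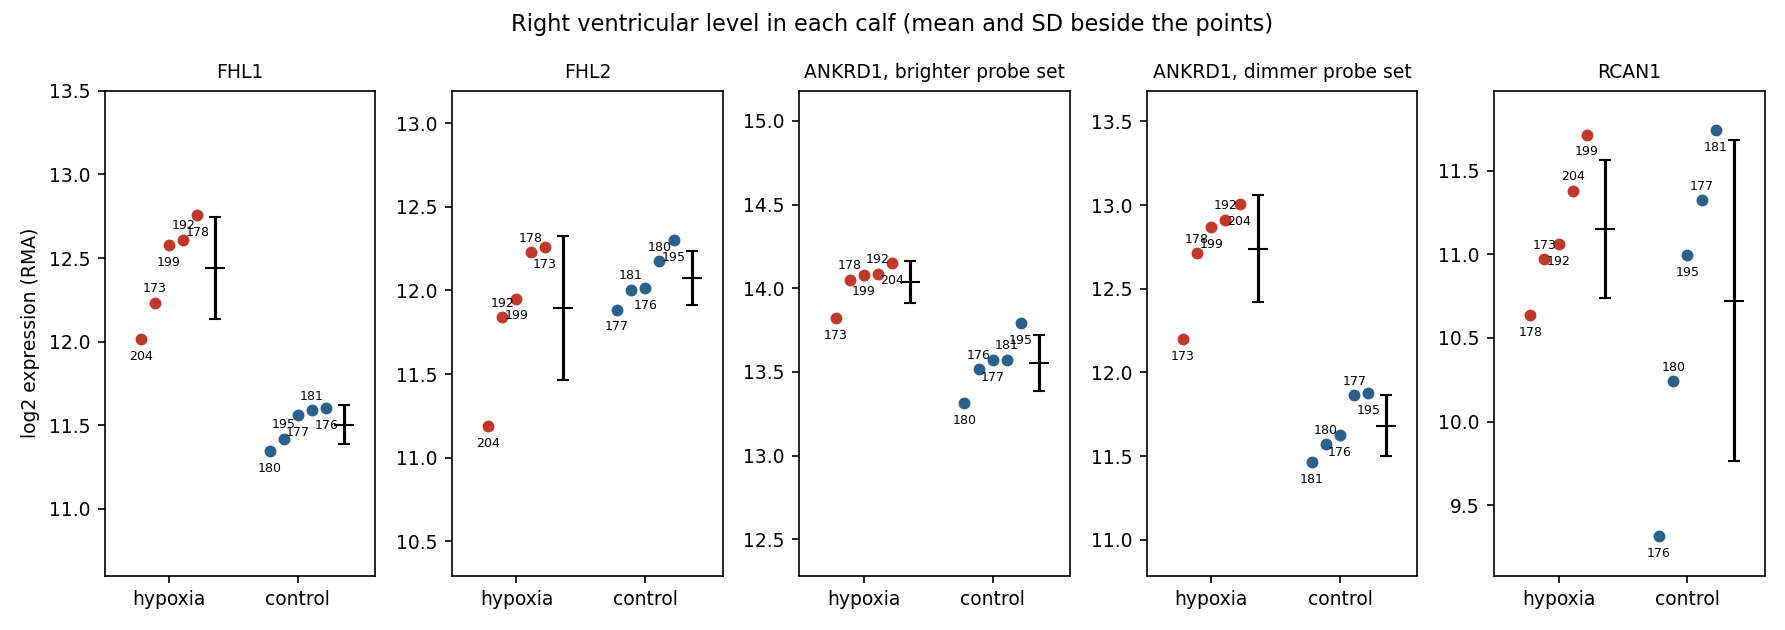
The plot of levels by calf gives the log2 expression of each probe set in the 5 hypoxia calves (red) and the 5 control calves (blue), with calf numbers and, beside each group, its mean and SD. Each panel spans the same height in log2 units. FHL1 and both ANKRD1 probe sets have no overlap between the groups, FHL2 has 1 low hypoxia calf (204), and RCAN1 runs from 9.31 to 11.74 in controls.

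Tissue composition was checked first with marker genes. Cardiomyocyte markers averaged 13.4 to 13.6 in hypoxia calves and 13.5 to 13.6 in control calves over the 9 of 10 listed genes measured. Skeletal muscle markers, 6 of 11 measured, averaged 4.05 to 4.34 in hypoxia and 4.03 to 4.43 in control. Fibroblast markers averaged 10.51 in both groups, though of the 9 measured 1 passed as higher and 1 as lower in the limma fit. Group means in hypoxia and control were 9.20 and 8.85 for smooth muscle markers (exact permutation p = 0.119). They were 7.35 and 7.19 for endothelial markers (exact permutation p = 0.0952) and 8.11 and 7.56 for macrophage markers (exact permutation p = 0.103). The means of 7 marker lists and the 3' minus 5' signals of 6 control transcripts, a sign of RNA integrity, made 13 measures. Of these, 2 had exact two-sided permutation p-values under 0.05, and 0 passed after adjustment over the 13. The lowest p that 5 against 5 calves can give, 0.00794, adjusts to 0.103 when 1 measure reaches it, so this adjustment says little about composition or RNA quality. Array medians lay between 5.48 and 5.54. In whole tissue, more RNA per cell and more cells of a type cannot be told apart.

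FHL1 was high in every hypoxia calf. Its log2 level was 12.23 in calf 173, 12.76 in 178, 12.61 in 192, 12.58 in 199 and 12.02 in 204 of the hypoxia group, against 11.60 in calf 176, 11.56 in 177, 11.34 in 180, 11.59 in 181 and 11.42 in 195 of the control group. The lowest hypoxia calf lay 0.41 above the highest control calf. The difference was 0.93 ± 0.14 (SE, n = 5 calves per group; 95% interval 0.63 to 1.24; limma, adjusted p = 0.00931), or 1.91-fold with an interval of 1.55 to 2.36. By its p the probe set ranked 64 of 24016, and by its difference 286. The controls lay close together (SD 0.12), and the hypoxia calves spread more widely (SD 0.31). The FHL1 call held whichever single calf was omitted (adjusted p = 0.00656 to 0.0299), and without hypoxia calves 178 and 199 together it differed by 0.78 (adjusted p = 0.0462). RefSeq lists 6 transcripts of cattle FHL1, and 1 probe set does not tell them apart.

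ANKRD1 was measured by 2 probe sets, and both passed. On the dimmer one the level was 12.20 in hypoxia calf 173, 12.71 in 178, 12.91 in 192, 12.87 in 199 and 13.00 in 204, against 11.63 in control calf 176, 11.86 in 177, 11.57 in 180, 11.47 in 181 and 11.88 in 195. Its difference was 1.06 ± 0.15 (95% interval 0.72 to 1.39; limma, adjusted p = 0.00872), rank 52 of 24016 by p. On the brighter one the level was 13.82 in hypoxia calf 173, 14.05 in 178, 14.09 in 192, 14.08 in 199 and 14.15 in 204, against 13.52 in control calf 176, 13.57 in 177, 13.31 in 180, 13.57 in 181 and 13.79 in 195. There the lowest hypoxia calf stood only 0.03 above the highest control calf. The difference was 0.49 ± 0.10 (95% interval 0.26 to 0.71; limma, adjusted p = 0.0329).

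The hypoxia calves fell in the same order on both ANKRD1 probe sets, with calf 204 highest, then 192, 199, 178 and 173. The measured response differed between the probe sets, however. The dimmer set moved 2.18 times as far on the log2 scale, and its within-calf distance to the brighter set was -1.62 to -1.15 in hypoxia and -2.11 to -1.71 in control, without overlap (two-sided exact test over all assignments of calves, p = 0.00794, the lowest value possible). The brighter set lay 0.11 to 0.45 below the brightest probe set of its array in hypoxia calves. In control calves it lay 0.44 to 0.95 below. Array signals can be compressed in this range, and whether that bears on the unequal response was not tested. Calls differed in stability too. The dimmer set passed whichever calf was omitted (adjusted p = 0.00179 to 0.0307) and without calves 178 and 199 together (1.02, adjusted p = 0.0493). The brighter set kept its call when control 195 or hypoxia 173 was omitted. It lost it when any 1 of hypoxia calves 178, 192, 199 and 204 or controls 176, 177, 180 and 181 was omitted (differences of 0.43 to 0.49, highest adjusted p = 0.0760).

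A pair of other measures also differed between the groups before adjustment, 1 lower and 1 higher in hypoxia. The 3' minus 5' signal of the actin control was 1.51 to 2.55 in hypoxia calves and 2.81 to 4.35 in control calves (exact permutation p = 0.00794, adjusted p = 0.103 over 13 measures), and the same signal of the 5 other control transcripts overlapped between the groups (exact permutation p = 0.143 to 0.714). The mean of 3 measured atrial markers, NPPA, MYL4 and SLN of 4 listed, was 7.18 to 9.15 in hypoxia and 5.80 to 7.21 in control (exact permutation p = 0.0159, adjusted p = 0.103), and 0 of the 3 passed in the fit. NPPA, which is also counted among the load-responsive genes, differed by 2.13 ± 0.63 (limma, adjusted p = 0.0980), and the mean of the 3 was 7.74 in hypoxia and 6.73 in control. The dimmest of them, SLN, averaged 4.70. Their part in the ANKRD1 and FHL1 results was not tested.

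**Figure D2:**
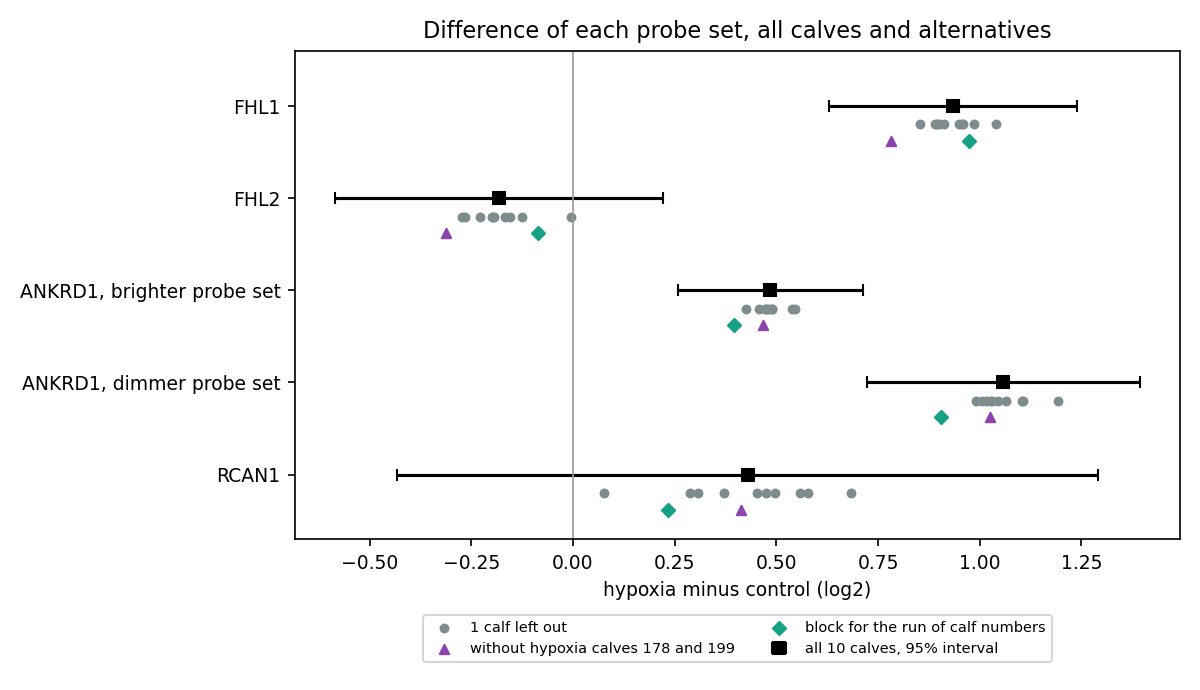
The plot of differences gives hypoxia minus control on the log2 scale for each probe set, as squares with 95% intervals over all 10 calves. Grey points leave out 1 calf, triangles leave out hypoxia calves 178 and 199, and diamonds carry the run of calf numbers as a block. The intervals of FHL1 and both ANKRD1 probe sets lie above 0, and those of FHL2 and RCAN1 cross it.

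FHL2, the close relative of FHL1, did not pass. Its level was 12.26 in hypoxia calf 173, 12.23 in 178, 11.84 in 192, 11.95 in 199 and 11.19 in 204, against 12.01 in control calf 176, 11.88 in 177, 12.17 in 180, 12.00 in 181 and 12.30 in 195. The groups overlapped, with hypoxia calves 192 and 204 below every control and 204 the lowest. FHL2 differed by -0.18 ± 0.18 (95% interval -0.58 to 0.22; limma, adjusted p = 0.676), so the interval allows at most a 1.17-fold increase. Without calf 204 the difference was -0.005. As with FHL1, the hypoxia SD of 0.43 was larger than the control SD of 0.16, though the difference in spread was not tested. The third family member measured, FHL3, was dimmer than FHL1 and FHL2, averaging 6.85 in hypoxia and 6.70 in control. FHL3 differed by 0.15 ± 0.19 (limma, adjusted p = 0.761).

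RCAN1 had the largest spread among controls of the 5 probe sets. It was 10.97 in hypoxia calf 173, 10.63 in 178, 11.06 in 192, 11.72 in 199 and 11.38 in 204, against 9.31 in control calf 176, 11.32 in 177, 10.24 in 180, 11.74 in 181 and 10.99 in 195. Controls covered 2.43 on the log2 scale and hypoxia calves 1.08, all of them within the range of the controls. The control SD of 0.96 was larger than that of 99.4% of probe sets, and the hypoxia SD was 0.41. The difference was 0.43 ± 0.39 (95% interval -0.43 to 1.29; limma, adjusted p = 0.637), and this interval covers a 0.74-fold as well as a 2.45-fold level. The value rested on single calves: it was 0.08 without control calf 176 and 0.68 without control calf 181. RefSeq lists 2 transcripts of cattle RCAN1, and 1 probe set gives no separate value for the one that NFAT controls.

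The 4 genes were then compared within each calf, by subtracting the level of one gene from that of another on the brightest probe sets. The level of such a difference depends on the probes, so only its change between groups carries information. FHL1 and FHL2 responded unequally. FHL1 minus FHL2 was -0.03 to 0.82 in hypoxia calves and -0.88 to -0.32 in control calves, without overlap, a change of 1.11 ± 0.19 (exact two-sided permutation test over calves, p = 0.00794, adjusted p = 0.0476 over 6 pairs). Of the hypoxia calves, 173 was lowest and the other 4 lay between 0.53 and 0.82. The exact p over all 10 calves was the lowest value possible. With any 1 control calf left out the groups still did not overlap but were of unequal size. The adjusted p of the permutation test was then 0.0952, with changes of 1.04 to 1.18.

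None of the other 5 pairs passed. FHL1 minus ANKRD1 changed by 0.45 ± 0.16 (exact permutation p = 0.0397, adjusted p = 0.0794) and FHL2 minus ANKRD1 by -0.67 ± 0.25 (exact permutation p = 0.0238, adjusted p = 0.0714). With the dimmer ANKRD1 probe set, FHL1 minus ANKRD1 changed by -0.12 (adjusted p = 0.627), and FHL2 minus ANKRD1 by -1.24 (adjusted p = 0.0476), which passed. On the brighter probe set FHL1 minus ANKRD1 passed without hypoxia calf 204 (0.58, adjusted p = 0.0238), and FHL2 minus ANKRD1 without hypoxia calf 173 (-0.81, adjusted p = 0.0238). The 3 pairs with RCAN1 had changes of -0.61 to 0.50 and exact permutation p-values of 0.286 to 0.921. Over all 10 calves and the brightest probe sets, the permutation test gave a call for FHL1 against FHL2 only.

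**Figure D3:**
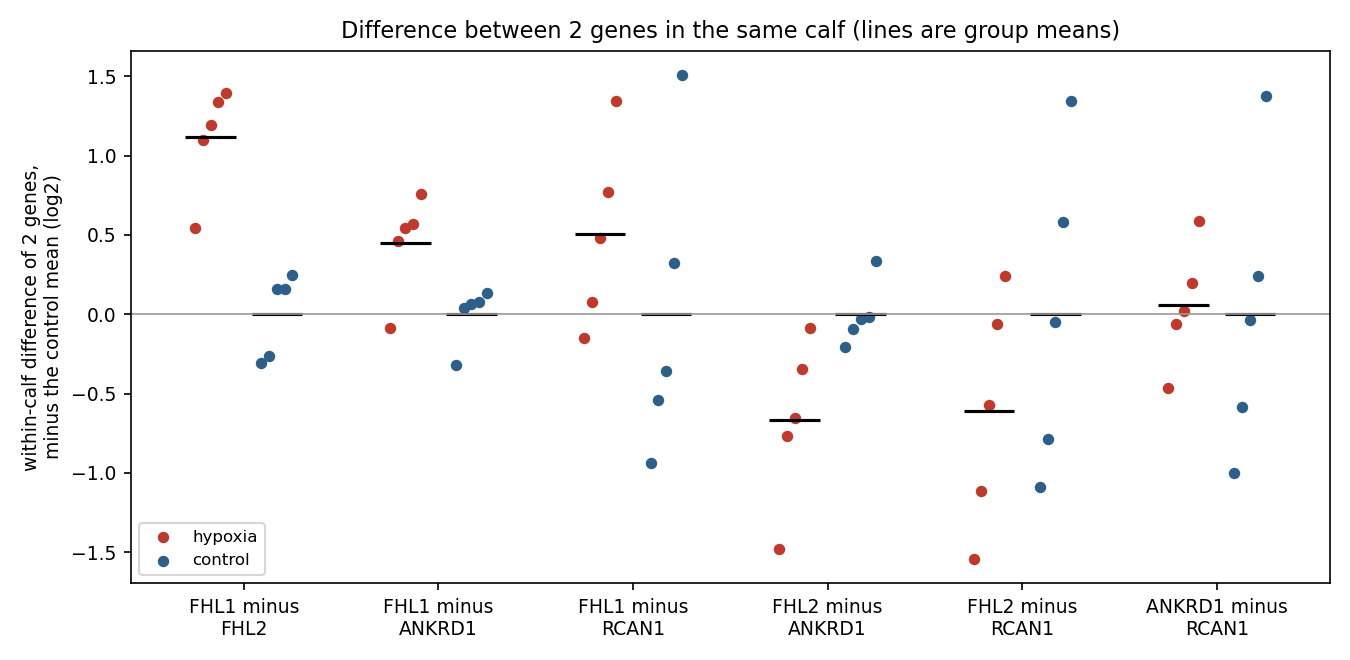
The plot of gene pairs shows, for each of the 6 pairs, the within-calf difference of 2 genes on the log2 scale after subtracting the control mean, with hypoxia calves in red, control calves in blue and lines at the group means. FHL1 minus FHL2 separates the groups. The pairs with RCAN1 overlap widely.

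Calves of one group that were high in one gene were not found to be high in another. Over the deviations of the 10 calves from their group means, Pearson's r for the 6 gene pairs lay between -0.32 and 0.45, and Spearman's rho between -0.44 and 0.54. The smallest permutation p, shuffling calves within groups, was 0.325 for r and 0.141 for rho, and 0.621 and 0.516 after adjustment over 6 pairs. The highest r, 0.45 between FHL1 and FHL2, was 0.12 without hypoxia calves 204 and 173. ANKRD1 was taken at its brighter probe set, and with 10 calves these tests cannot show that a shared order is absent. Hypoxia calf 204 is an example of ranks that differed between genes. It was highest of its group for ANKRD1, lowest for FHL1 and FHL2, and second for RCAN1.

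**Figure D4:**
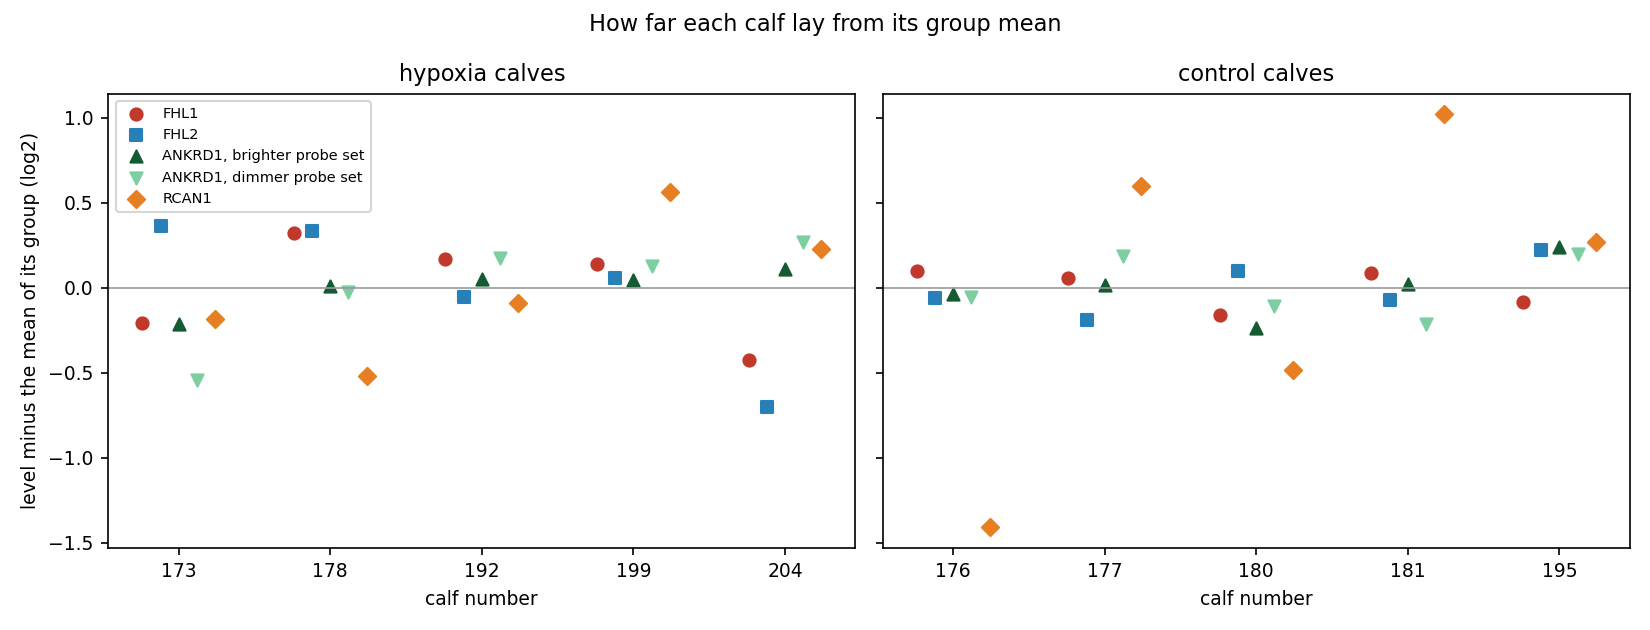
The plot of deviations gives each calf's distance from the mean of its group on the log2 scale, for the 5 probe sets, with hypoxia calves on the left and control calves on the right. Calf 204 lies below its group mean for FHL1 and FHL2 and above it for ANKRD1 and RCAN1, and the control calves 176 and 181 lie farthest from 0 for RCAN1.

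Genes whose proteins meet FHL1 and ANKRD1 at titin were examined next. Of 9 measured genes of this list, 3 rose and 0 fell (limma; 4 higher and 0 lower at an unadjusted p under 0.05), where 3.66% of all named genes passed on their brightest probe set, 2.17% higher and 1.49% lower. At an unadjusted p under 0.05, 11.1% of all named genes were higher and 11.3% lower. The list median was 0.15, beside -0.01 over all 9155 named genes. FHL1 and ANKRD1 are 2 of the 3, and the third was MYPN, the myopalladin that binds ANKRD1, at 10.18 ± 0.41 in hypoxia and 9.13 ± 0.29 in control (SD, n = 5), a difference of 1.06 ± 0.20 (limma, adjusted p = 0.0213). MAP2K1, the kinase MEK1, averaged 9.96 in hypoxia and 9.47 in control without passing (0.50 ± 0.13, limma, adjusted p = 0.0613), while its sister kinase MAP2K2 differed by -0.27 ± 0.13 (adjusted p = 0.304) and the ERK kinase MAPK3 by -0.11 ± 0.10. CAPN3, a protease held by titin, differed by 0.05 ± 0.08 at a low level of 3.44 in hypoxia and 3.38 in control. TTN, the gene of titin itself, had no probe set with a single symbol and was not measured. Of the 6 measured genes outside the 4 followed here, 1 passed. Without control calf 177 or 181, or without hypoxia calves 178 and 199 together, FHL1 alone of the list passed.

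Among Z-disc stretch sensors and related LIM proteins, 1 of the 10 genes with a probe set rose, and 0 fell (2 higher and 1 lower at an unadjusted p under 0.05), with a list median of 0.13. Over all named genes 3.66% passed, and 11.1% were higher and 11.3% lower unadjusted. It was FLNC, the filamin that cross-links actin at the Z-disc, at 11.33 ± 0.35 in hypoxia and 10.34 ± 0.36 in control (0.99 ± 0.20; limma, adjusted p = 0.0252). FLNC passed on 2 of 2 probe sets, and its call ended with the block of calf numbers, without hypoxia calves 178 and 199 together, and on omitting any 1 of hypoxia calves 178, 199 and 204 or controls 176, 177 and 181. MYOZ2, or calsarcin, which ties calcineurin to the Z-disc, differed by 0.26 ± 0.08 (adjusted p = 0.109). The LIM protein CRIP2 differed by -0.59 ± 0.21 (adjusted p = 0.157) and the Z-disc alpha-actinin ACTN2 by 0.22 ± 0.10 (adjusted p = 0.296). TCAP, the telethonin cap of titin, differed by -0.09 ± 0.10 at a bright level of 13.65 in hypoxia and 13.74 in control. The listed gene CSRP3 had no probe set with a single symbol and was not measured.

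The calcineurin pathway around RCAN1 was counted next. Of 20 measured genes 0 passed (limma; 6 at an unadjusted p under 0.05, 5 higher and 1 lower), with a median of 0.13. Of all named genes 3.66% passed, and 11.1% were higher and 11.3% lower unadjusted. An intensity trend in the variance model gave 1 call, MYOZ2 (adjusted p = 0.0499), and leaving out hypoxia calf 173 gave 1, GSK3B (0.94, adjusted p = 0.0359). The 4 smallest p-values belonged to CIB1, a calcium-binding anchor of calcineurin (0.62 ± 0.19, limma, adjusted p = 0.106), MYOZ2, its relative MYOZ1 (0.78 ± 0.25, adjusted p = 0.122) and GSK3B, a kinase that sends NFAT out of the nucleus (0.73 ± 0.25, adjusted p = 0.147). The catalytic subunits of calcineurin had differences on both sides of 0, with 0.30 ± 0.13 for PPP3CA, 0.22 ± 0.15 for PPP3CC and -0.34 ± 0.12 for PPP3CB (adjusted p = 0.264, 0.501 and 0.152). The RCAN1 relatives RCAN2 and RCAN3 differed by 0.38 ± 0.18 and -0.19 ± 0.18 (adjusted p = 0.315 and 0.637). NFATC1, NFATC3 and NFATC4 differed by -0.12, -0.13 and -0.003.

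ANKRD1 is also a target of YAP and TEAD, regulators of transcription that respond to tension. YAP1 itself, WWTR1, TEAD1 and LATS2 had no probe set with a single symbol and were not measured. ANKRD1 was the only 1 of 13 measured genes of that list to pass (0 fell, with 5 higher and 1 lower at an unadjusted p under 0.05), with a list median of 0.23. The shares over all named genes were 3.66% passed, and 11.1% higher and 11.3% lower unadjusted. This call ended wherever that on its brighter probe set did. Of the 11 measured genes outside the 4 followed here, 0 passed. TEAD4 averaged 6.73 in hypoxia and 5.75 in control (0.98 ± 0.25; limma, adjusted p = 0.0624), with 6.21 the lowest hypoxia and 5.99 the highest control value, while TEAD2 and TEAD3 differed by -0.39 ± 0.14 and 0.12 ± 0.13. CCN2, the matricellular target of YAP, averaged 12.60 in hypoxia and 11.37 in control (1.23 ± 0.44, adjusted p = 0.160), and CCN1 differed by 0.15 ± 0.48 (adjusted p = 0.914). CNN1, the smooth muscle calponin, differed by 1.61 ± 0.53 (adjusted p = 0.134). Smooth muscle markers averaged 8.85 to 9.70 in hypoxia and 8.56 to 9.36 in control. Those 8 markers include CNN1 itself, with ACTA2 and TAGLN of the same YAP list, so their mean is not independent of CNN1. The only 1 of the 8 to pass was DES, which is also counted among the load-responsive genes.

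Other genes known to follow cardiac load included more calls. Of 11 measured, 4 rose and 0 fell (9 higher and 0 lower at an unadjusted p under 0.05), and the list median was 1.33. Beside this, 3.66% of all named genes passed, and 11.1% were higher and 11.3% lower unadjusted. MYOT, the Z-disc protein myotilin, had 10.96 ± 0.20 in hypoxia and 9.63 ± 0.42 in control, a difference of 1.33 ± 0.19 (2.51-fold; limma, adjusted p = 0.00784). The small heat shock protein HSPB6, the intermediate filament protein DES and the TWEAK receptor TNFRSF12A made up the other 3, at 1.97 ± 0.21, 0.52 ± 0.10 and 2.52 ± 0.57. DES lost its call when control 181 was omitted, and TNFRSF12A when any 1 of hypoxia calves 178, 192, 199 and 204 or controls 177 and 181 was. Without hypoxia calves 178 and 199, or with the block of calf numbers, 2 of them passed, HSPB6 and MYOT. ACTA1, the skeletal alpha-actin, known in rodents to be re-expressed in loaded ventricle, was 13.46 to 13.99 in hypoxia and 8.54 to 12.82 in control, a difference of 2.47 ± 0.61 that did not pass (limma, adjusted p = 0.0572). It passed without control calf 177 (1.78, adjusted p = 0.0132) or 195 (2.85, adjusted p = 0.0354), without dim probe sets, with an intensity trend, with array weights and in the fit of probe set means (adjusted p = 0.0362 to 0.0478). NPPA, HSPB1 and CRYAB did not pass (adjusted p = 0.0980, 0.0991 and 0.0942). TIMP1, an inhibitor of matrix proteases, did not pass (1.75 ± 0.53, adjusted p = 0.106). Its hypoxia values ran from 8.93 to 12.29 against 8.37 to 8.84 in control. The stress transcription factor ATF3 differed by -0.48 ± 1.12, with controls between 5.69 and 12.61. MYH7 averaged 14.23 in hypoxia and 14.18 in control on its brightest probe set (0.05 ± 0.09, limma, adjusted p = 0.832). Of its 3 probe sets, 1 passed. These 5 lists were drawn up with results of these data known, and their counts are descriptions.

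**Figure D5:**
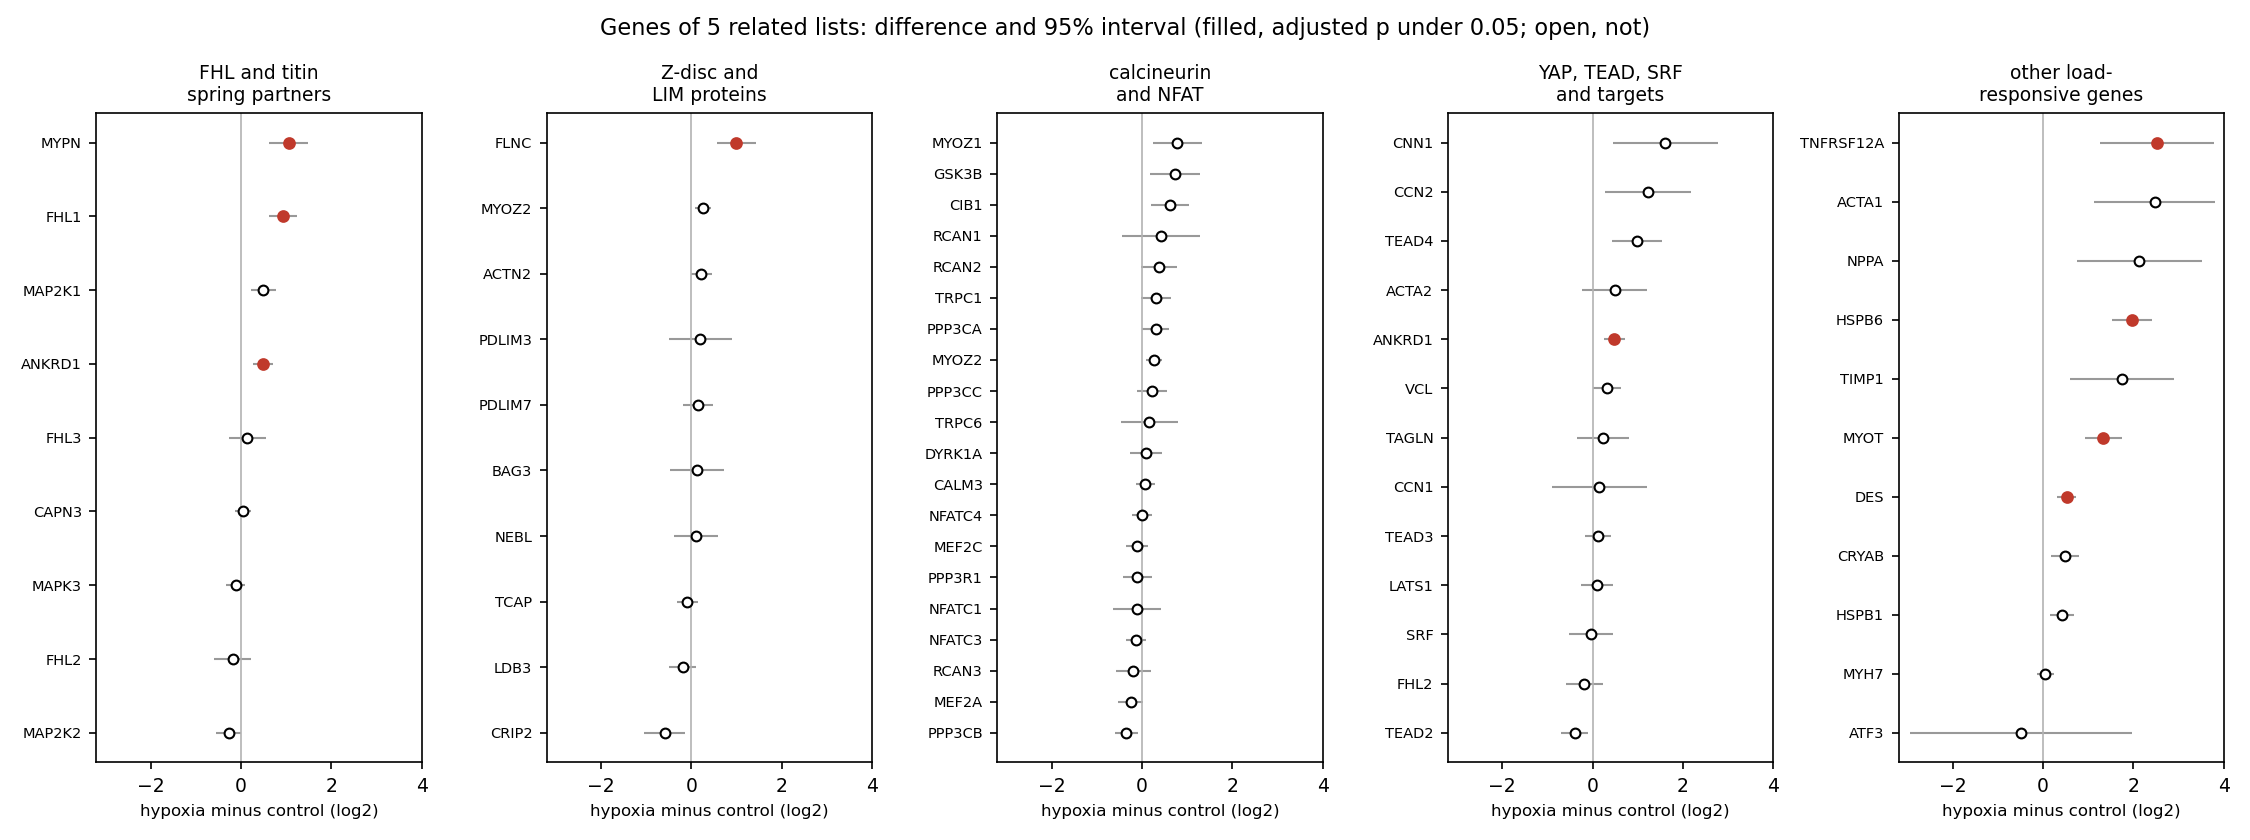
The plot of related genes shows, in 5 lists, the hypoxia minus control difference of each measured gene on the log2 scale with its 95% interval. Filled points passed an adjusted p of 0.05, and open points did not. FHL1, ANKRD1 and MYPN are filled among the partners at titin, and every point of the calcineurin list is open.

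The genes closest to each member across the calves were ranked by Pearson's r over all 10 calves among the brighter named genes. Such ranks describe these arrays, since a shared group difference alone gives a high r. For FHL1 they were CKS2, CKAP2, CDK1 and CENPF, which act in cell division, and the lysosomal protease CTSZ, with r of 0.95 to 0.98. After removing the group means their r to FHL1 was 0.64 to 0.87, highest for CKS2. Ranked by these deviations alone, other genes came first: NHP2, RPL8, RPL27, FAU and ACOT9, with r of 0.89 to 0.92. CKS2 was 7.59 in hypoxia calf 173, 9.01 in 178, 8.73 in 192, 8.78 in 199 and 7.66 in 204, so that the same 3 hypoxia calves were high in CKS2 and in FHL1.

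For ANKRD1 the closest were STYXL2, a striated muscle relative of phosphatases, the trafficking protein EHD3, the activin antagonist FSTL3, the creatine kinase CKB and the sphingomyelinase SMPD1, with r of 0.94 to 0.98. STYXL2 had r = 0.98, and 0.94 after removing the group means, where it again ranked first, followed by INO80, IPO4, SRPX and BRD2. It averaged 9.61 in hypoxia and 8.70 in control, a difference of 0.91 (limma, adjusted p = 0.0282), and was highest in calf 195 and lowest in calf 180 of the controls, as was ANKRD1 on its brighter probe set.

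FHL2 and RCAN1 were closest to genes that did not pass. FHL2 stood nearest to RUFY1, ABCF1, PTER, NDRG3 and BPNT1, with r of 0.88 to 0.92. ABCF1 was 8.89 in hypoxia calf 173 and 7.44 in calf 204, the hypoxia calves where FHL2 was highest and lowest within that group. By deviations alone the same 5 genes ranked first for FHL2. RCAN1 stood nearest to TSC22D1, SEC14L1, APOLD1, PPP1R16B and SLC20A1, with r of 0.85 to 0.92. By deviations alone NEDD9, TSC22D1, SEC14L1, LIN7C and ERG came first. In all 5 of the genes closest over all calves, control calf 176, the lowest for RCAN1, was the lowest control. APOLD1, an endothelial gene induced early after a stimulus, spanned 6.11 to 9.75 in controls and 7.75 to 9.51 in hypoxia calves.

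By number the calves form a lower run, with hypoxia calves 173 and 178 and control calves 176, 177, 180 and 181, and an upper run, with hypoxia calves 192, 199 and 204 and control calf 195. The labels do not say what the numbers mean. FHL1 differed by 0.97 in the lower run and 0.98 in the upper run, and by 0.97 with the run as a block (limma, adjusted p = 0.0286). The dimmer ANKRD1 probe set differed by 0.82 and 1.05, and by 0.91 with the block (adjusted p = 0.0209). The brighter one differed by 0.44 and 0.32, and by 0.40 with the block, which ended its call (adjusted p = 0.0848). RCAN1 differed by 0.15 and 0.39. FHL2 differed by 0.23 in the lower run and by -0.64 in the upper run, and by -0.09 with the block. Within the lower run alone these 5 probe sets had adjusted p-values of 0.109 to 0.953 (limma), so none passed. Of all 24016 probe sets, 31 passed in that run, so few calls could be made there. The upper run holds 1 control, so only its differences are given.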

How the data were processed

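Right ventricular RNA was hybridised with 1 array per calf. The deposited tables hold log2 expression values that the authors made with RMA, which corrects background, normalizes by quantiles and summarises each probe set, per the submitters' processing notes. The RMA software is not given in the sources used here. This step equalises array distributions, so a shift shared by all transcripts would be lost, and bright signals can be compressed. Both tables were equal in all shared cells. The 112 Affymetrix control rows were left out of the fit.

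The test was limma's lmFit and eBayes without trend (limma 3.58.1, R 4.3.3) over 24016 probe sets with Benjamini-Hochberg adjustment at 0.05. A gene in a list was taken at its brightest probe set. Probe sets with 1 symbol in the platform annotation numbered 13292, with several 86 and with none 10638. Permutation tests over calves enumerated all assignments. Correlations used all 14400 shuffles within groups. Figures used matplotlib 3.10.9. The number of arrays limits the precision.

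Members, lists and tests were chosen with earlier results of these data known. Named were all member probe sets, list members that passed or had the 4 smallest p-values, and the 5 genes closest to each member. FHL3, MAP2K2, MAPK3, CAPN3, TCAP, the further calcineurin, RCAN and NFAT genes, TEAD3, CCN1, CCN2, TIMP1, ATF3, ACTA1, NPPA, HSPB1, CRYAB, MYH7 and the genes closest by deviations were added after their values were seen. Alternatives covered array scaling, a dim filter, the variance model, array weights, the run of calf numbers as a block, the threshold, the probe set and leaving out calves. No probe or protein sequences and no coordinates are given.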

Additional observations from a re-analysis of the deposited data

Results flagged for a closer look

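Control calf 195 lay apart from the other controls in FHL1 minus ANKRD1, at -2.37 against -2.01 to -1.91 in the other 4, by Dixon's test at its 95% level. Chance alone gives such a result in about 1 of 20 groups, and 22 groups were looked at. In that calf ANKRD1 was highest among the controls on both probe sets.

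FHL2 differed in opposite directions in the runs of calf numbers. In the lower run both hypoxia calves, 12.23 and 12.26, lay above all 4 controls, 11.88 to 12.17. In the upper run all 3 hypoxia calves, 11.19 to 11.95, lay below the single control at 12.30. The difference in the upper run minus that in the lower run was -0.86 ± 0.33 (limma interaction term, adjusted p = 0.733), which did not pass over all probe sets. This test was added after the values were seen, and it called 2 of 24016 probe sets.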

How the results depend on the processing

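FHL1 and the dimmer ANKRD1 probe set passed, and FHL2 and RCAN1 did not pass, under every alternative that kept calves of both runs of numbers, and there none of the 4 changed sign. Within the lower run alone none of the 4 passed, where 31 of all 24016 probe sets did. FHL2 differed by 0.23 in the lower and -0.64 in the upper run. With 1 calf left out they ranged over 0.85 to 1.04 (FHL1), 0.99 to 1.19 (dimmer ANKRD1), -0.27 to -0.005 (FHL2) and 0.08 to 0.68 (RCAN1). The brighter ANKRD1 probe set did not pass with the block for calf numbers (0.40) or without hypoxia calves 178 and 199 (0.47), and ranged over 0.43 to 0.54 with 1 calf left out (adjusted p = 0.0251 to 0.0760). With the mean of its probe sets ANKRD1 passed (0.77, adjusted p = 0.00878). The count of probe sets past the threshold was 652, and 217 with the block, 155 without calves 178 and 199, 1436 at an adjusted p of 0.10 and 241 to 605 with 1 calf left out.

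Among gene pairs, leaving out 1 calf gave 1.04 to 1.26 for FHL1 minus FHL2 (adjusted p = 0.0238 to 0.0952), 0.37 to 0.58 for FHL1 minus ANKRD1 (adjusted p = 0.0238 to 0.175, passing without hypoxia calf 204), -0.81 to -0.46 for FHL2 minus ANKRD1 (adjusted p = 0.0238 to 0.127, passing without hypoxia calf 173) and -0.19 to 0.40 for ANKRD1 minus RCAN1. FHL1 minus ANKRD1 reversed to -0.12 with the dimmer ANKRD1 probe set, and FHL2 minus ANKRD1 passed at -1.24 with it and at -0.95 with the mean of probe sets. The pairs with the dimmer probe set and the values within runs of calf numbers were chosen after seeing the data.

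Counts of list members that passed were 3, 1, 0, 1 and 4 in the order of the lists above. The FHL and titin list had 1 without calves 178 and 199 and 1 to 4 with 1 calf left out. The Z-disc list had 2 with an intensity trend or the mean of probe sets, 0 with the block or without calves 178 and 199, and 0 to 1 with 1 calf left out. The calcineurin list had 1 (MYOZ2) with an intensity trend or the mean of probe sets and 0 to 1 with 1 calf left out (GSK3B without hypoxia calf 173). The YAP list had 2 without dim probe sets or at 0.10 (TEAD4 and ANKRD1), 0 with the block or without calves 178 and 199, and 0 to 2 with 1 calf left out. The load list had 2 with the block or without calves 178 and 199, 8 at 0.10 and 2 to 5 with 1 calf left out. The cause of these changes was not tested. No paired analysis was possible because the groups share no replicate numbers.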
